A study of Homo sapiens with 4 samples.

Results

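The tumour necrosis factor (TNF) superfamily comprises secreted or membrane-bound trimeric ligands and the receptors they bind. Members were taken from the deposited gene symbols: symbols built as TNFSF or TNFRSF with a number, and TNF, LTA, LTB, FAS, FASLG, CD40, CD40LG, CD27, CD70, LTBR, NGFR and EDAR. The rule found 45 of 60609 gene identifiers: 17 ligand genes, 27 receptor genes and 1 readthrough gene, TNFSF12-TNFSF13.

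The series examined metabolic stress in CCRF-CEM cells, a long-established human cell line derived from T-lineage acute lymphoblastic leukaemia. All samples had the genotype CCRF-CEM/HA-AMPKa2, so the glucose-deprived and the control cells both carried the tagged AMPK subunit. The No glucose group (2 libraries, ONG_9 and ONG_10) was kept in medium without glucose for 24 hours. The Ctrl group (2 libraries, CTRL_7 and CTRL_8) was kept in control medium for the same time, and cells had been grown in RPMI with fetal bovine serum. The labels do not say whether the line is a single clone or whether replicates were separate cultures, and the p-values therefore reflect just the scatter among these 4 libraries, part or all of which may be technical. In bulk RNA, fewer cells expressing a gene and less RNA per cell cannot be told apart.

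TNF superfamily receptors fall into 3 broad classes. Death domain receptors such as FAS and the TRAIL receptors recruit FADD and caspase-8 and can trigger apoptosis. Receptors without a death domain, such as CD27 and CD30, bind TRAF adaptors and activate NF-kB, giving survival and costimulatory signals in T cells. Decoy receptors bind ligand without a full signal.

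The No glucose libraries held 19035535 and 20081266 recovered reads, against 96698709 and 24513840 in the Ctrl libraries. A single read was therefore worth 1.52 and 1.4 normalized counts in No glucose, and 0.343 and 1.34 in Ctrl. Compared by their reads over genes with 20 or more, the 2 libraries of a group gave a chi-square of 5.72 per degree of freedom in No glucose and 1.81 in Ctrl, so both pairs differed by more than counting noise and the No glucose pair by more. All 15 T-lineage markers examined had reads, as did all listed markers of B cells and adherent cells. The T-lineage markers summed to 91594 to 92356 normalized counts in No glucose and 100020 to 101470 in Ctrl. Of the 15, 14 reached a mean of 10 in a group, and PTCRA did not (means of 5.78 in No glucose and 4.60 in Ctrl). Of these 15, 3 were higher (CD3E, CD247 and TRBC1) and 4 lower (CD3G, CD7, TAL1 and RAG1). RAG1, with 10292 and 9585 in No glucose against 16682 and 16641 in Ctrl, had the largest difference in normalized counts. By log2 fold change, CD7 (-0.92) and TRBC1 (0.83) changed more than RAG1 (-0.75). Markers of B cells summed to 652 to 684 in No glucose against 1102 to 1105 in Ctrl, and 4 of the 6 tested were lower. CD79A gave most of that sum, and the defining B cell gene MS4A1 had 0 reads in 3 of the 4 libraries. Myeloid markers summed to 34.9 to 60.3 in No glucose and 42.9 to 46.8 in Ctrl, and none of the 5 tested passed. CSF1R gave most of that sum, with 27.3 and 36.5 in No glucose and 22.7 and 25.4 in Ctrl. ITGAM came next, with means of 7.77 in No glucose, on 1 and 10 reads, and 15.4 in Ctrl. MPO and FCGR3A were at 0 throughout. Adherent cell markers summed to 1075 to 1208 in No glucose and 1659 to 1688 in Ctrl, 1 of 5 tested higher and 2 lower. The 2 lower genes gave nearly all of that sum: PECAM1 (means of 711 in No glucose and 1152 in Ctrl) and EPCAM (403 and 508). COL1A1, the higher gene, had 7.58 and 25.3 in No glucose and 2.06 and 2.68 in Ctrl. The remaining adherent cell markers stayed below a mean of 10 in both groups. The part of these genes in the results below was not tested.

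Of the 45 members, 26 reached a mean of 10 normalized counts in a group: 22 in both groups, 3 (FASLG, TNFSF4 and EDAR) in No glucose alone and 1 (TNFSF13) in Ctrl alone. The members nearest the limit were TNFSF4, with a mean of 10.0 in No glucose, just inside, and CD70 and NGFR, with means of 6.54 in No glucose, just outside. Of the 19 below it, 15 had at least 1 read and 4 had none in any library. Death domain receptors dominated the family. Per kilobase of exon, the mean normalized count of TNFRSF1A was 431 in No glucose and 515 in Ctrl, and that of FAS was 398 in No glucose and 463 in Ctrl. TNFRSF21 came next at 250 in No glucose and 225 in Ctrl. The most abundant ligands per kilobase were TNFSF10 (148 in No glucose, 164 in Ctrl) and LTB (127 in No glucose, 145 in Ctrl). In No glucose the library ranges of TNFRSF1A and FAS overlapped, as they did not in Ctrl. In No glucose the ranges of TNFSF10 and LTB overlapped too, as did those of the genes ranked 8 to 11, TNFRSF1B, TNFSF13B, TNFRSF10B and TNFSF14.

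With a mean of at least 1 over the libraries, 32 members could be tested. At an adjusted p under 0.05 (limma, Benjamini-Hochberg over all genes), 6 were higher and 4 lower in No glucose, and 22 did not pass. Over all genes tested 14.4% were called higher and 20.7% lower, 35.1% in all, so the members' 31.2% is near the background. Of the 26 members that reached a mean of 10, 38.5% were called. Of all genes tested at that level 50.4% were, 20.1% higher and 30.3% lower, and of protein-coding genes at that level 60.3% were, 18.5% higher and 41.8% lower. The members' share was thus below that of genes reaching the same limit, a difference that was not tested. A mean of 10 is only a lower limit, and abundance above it was not compared between members and other genes. By other fits, 22.2% of all genes were called higher and 13.9% lower with library totals, 14.4% and 22.9% with edgeR and TMM scaling, and 8.86% and 17.7% with DESeq2. The same fits called 9 members higher and 1 lower, 5 and 5, and 0 and 3. The median log2 fold change was 0.25 over the 32 members and 0.04 over all genes tested. Among genes reaching a mean of 10, the medians were 0.22 for the members, -0.03 for all genes and -0.17 for protein-coding genes. Both libraries of No glucose lay above both of Ctrl for 13 members and below for 7, against 35.1% and 31.7% of all genes tested. At a mean of 10 it was 11 and 6 members, against 36.4% and 41.5% of all genes and 29.2% and 53.3% of protein-coding genes. Of the 26 members at that level 6 were called higher and 4 lower. Lower calls and lower-lying groups were thus rarer in this count than among protein-coding genes at that level. The limit can, however, be passed through the group where a gene is high. FASLG, EDAR and TNFSF4 passed it in No glucose alone and TNFSF13 in Ctrl alone, and FASLG is 1 of the 6 called higher. The split by direction is therefore not independent of the limit. These counts describe the family, and their differences from the background were not tested. Precision follows depth. The standard error of the log2 fold change ran from 0.07 to 0.13 for the 5 members with a mean of at least 200 and from 0.44 to 1.0 for the 9 with a mean under 10.

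**Figure D1:**
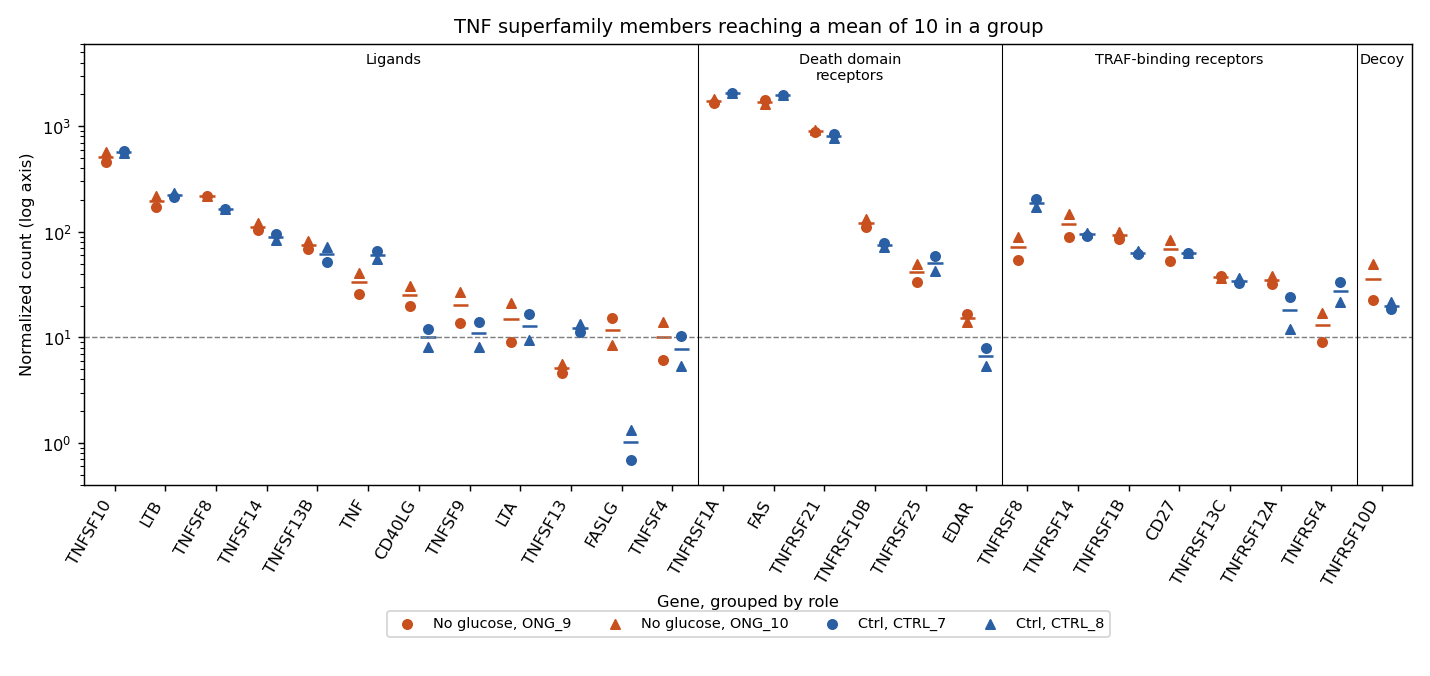
Normalized counts (log axis) of the 26 members that reached a mean of 10 in a group, by role, with No glucose (orange) left of Ctrl (blue) for each gene. Points are libraries, short bars are group means, the dashed line is a count of 10. FASLG stands at 15.2 and 8.42 in No glucose and at 0.687 and 1.34 in Ctrl, and TNFRSF8 is lower in both No glucose libraries.

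Among the ligands, FASLG, CD40LG and TNFSF8 rose and TNF fell. Of the 17 ligand genes 14 were tested, 10 of which did not pass.

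FASLG, the ligand through which cytotoxic T cells kill FAS-bearing targets, lies on chromosome 1 (172659018 to 172666874, hg38). It had 15.2 and 8.42 normalized counts in the No glucose libraries, against 0.687 and 1.34 in the Ctrl libraries. The groups did not overlap, but the values rest on 10 and 6 reads in No glucose and on 2 and 1 in Ctrl. Pooled reads per size factor gave a ratio of 14.2 (95% exact interval 4.07 to 76.2, counting error only). The fitted log2 fold change was 2.64 ± 0.59 (SE, limma adjusted p = 0.0042), a value that depends on the pseudocount: 1.45 with a pseudocount of 5. The call was lost without CTRL_7 (adjusted p = 0.098), CTRL_8 (0.081) or ONG_9 (0.051), and DESeq2 gave this gene no adjusted p. The range over the alternatives was 0.0020 to 0.098.

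The 300 bases around the RefSeq start of FASLG (GRCh38.p14, plus strand, chr1:172658853-172659152) are shown because this ligand had the largest fold change of the family. The sequence gives 250 bases before the start and 50 after it, and capitals mark matches to GGAAA on either strand, the core of NFAT sites.
FASLG: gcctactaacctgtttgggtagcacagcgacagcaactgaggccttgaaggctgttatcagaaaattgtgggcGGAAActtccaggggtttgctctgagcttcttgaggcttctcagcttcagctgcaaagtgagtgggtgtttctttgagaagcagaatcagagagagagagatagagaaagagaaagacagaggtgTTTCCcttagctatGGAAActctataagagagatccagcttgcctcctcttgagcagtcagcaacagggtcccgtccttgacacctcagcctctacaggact
The window held 3 GGAAA matches, beginning at bases 74, 199 and 213, and no match to the AP-1 motif TGANTCA, the NF-kB motif (GGGAN directly followed by TTTCC) or the NR4A motif AAAGGTCA. Both strands were searched. Of 35116 RefSeq promoter windows 61.2% held GGAAA, 7.71% TGANTCA, 0.558% the NF-kB motif and 1.22% AAAGGTCA, so the GGAAA matches do not set this window apart. RefSeq windows were at hand for 28 of the 45 members.

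CD40LG, the T cell ligand that activates CD40-bearing B cells and dendritic cells, lies on chromosome X (136648193 to 136660390). It had 19.7 and 30.9 normalized counts in No glucose, against 12.0 and 8.03 in Ctrl, and the groups did not overlap. The log2 fold change was 1.24 ± 0.37 (SE, limma adjusted p = 0.023). The call was lost with DESeq2 (adjusted p = 0.15), narrowly without a filter on low genes (0.050), and with any 1 library left out (0.061 to 0.29). TNFSF8, the ligand of CD30 on chromosome 9 (114893343 to 114930595), had 217 and 220 normalized counts in No glucose, against 163 and 166 in Ctrl. Libraries of a group lay close together, and the log2 fold change was 0.41 ± 0.12 (SE, limma adjusted p = 0.017). It was not called by DESeq2 (0.12) or without CTRL_7 (0.18), CTRL_8 (0.18) or ONG_10 (0.052).

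TNF itself, the inflammatory cytokine that names the family, lies on chromosome 6 (31575567 to 31578336) beside LTA and LTB. It had 25.8 and 40.7 normalized counts in No glucose, against 65.3 and 54.8 in Ctrl. Both No glucose values were below both Ctrl values, with a log2 fold change of -0.86 ± 0.26 (SE, limma adjusted p = 0.022). With scaling to library totals the change was -0.66 (adjusted p = 0.097), with DESeq2 the adjusted p was 0.13, and without CTRL_7, CTRL_8 or ONG_9 it was 0.30, 0.23 and 0.15. The change was -0.55 without ONG_9 and -1.18 without ONG_10.

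Its neighbours did not pass. LTB, which anchors lymphotoxin heterotrimers in the membrane, had 173 and 216 normalized counts in No glucose and 212 and 231 in Ctrl (log2 fold change -0.20, 95% interval -0.49 to 0.10, positive with library totals). LTA, the soluble partner of LTB, had 9.10 and 21.0 in No glucose and 16.5 and 9.36 in Ctrl, with overlapping groups and an interval of -0.87 to 1.16. TNFSF10 (TRAIL), a ligand that kills many tumour cells, had 462 and 565 normalized counts in No glucose and 584 and 555 in Ctrl. Its 95% interval for the log2 fold change was -0.38 to 0.08 under this scaling, and its sign turned with library totals. The change was -0.30 without ONG_10 and -0.0094 without ONG_9.

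TNFSF14 (LIGHT), a T cell costimulator, had 103 and 121 normalized counts in No glucose and 94.8 and 84.3 in Ctrl, without overlap (adjusted p = 0.16 in limma and 0.036 with library totals). TNFSF13B (BAFF), a survival factor for B cells, had 68.2 and 81.4 in No glucose and 51.9 and 72.2 in Ctrl, with overlapping groups. TNFSF9, the ligand of the costimulatory receptor TNFRSF9, had 13.6 and 26.7 in No glucose and 14.1 and 8.03 in Ctrl. TNFSF4, the ligand of OX40, had 6.06 and 14 in No glucose and 10.3 and 5.35 in Ctrl. In both genes the groups overlapped, and the libraries lay far apart within each group. TNFSF13 (APRIL), a plasma cell survival factor, had 4.55 and 5.61 in No glucose and 11.3 and 13.4 in Ctrl, without overlap (log2 fold change -1.14 ± 0.44, SE, limma adjusted p = 0.069).

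Among the 8 death domain receptors, all tested, TNFRSF10B rose while TNFRSF1A and FAS had small falls. TNFRSF10B (TRAIL receptor 2), a receptor for TNFSF10 on chromosome 8 (23020133 to 23069179), had 111 and 132 normalized counts in No glucose, against 77.6 and 72.2 in Ctrl. The groups were well apart, and the log2 fold change was 0.68 ± 0.16 (SE, limma adjusted p = 0.0064). It missed the threshold with DESeq2 (adjusted p = 0.057) and without CTRL_7 (0.12), CTRL_8 (0.17) or ONG_10 (0.063).

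TNFRSF1A, the main receptor of soluble TNF, lies on chromosome 12 (6328757 to 6342114). It had 1644 and 1810 normalized counts in No glucose, against 2056 and 2068 in Ctrl (log2 fold change -0.26 ± 0.07, SE, limma adjusted p = 0.012). FAS, on chromosome 10 (88990582 to 89015785), had 1757 and 1625 in No glucose, against 1959 and 1976 in Ctrl (log2 fold change -0.22 ± 0.07, SE, limma adjusted p = 0.024). Both falls depend on the scaling. With library totals, which move the median of all genes from 0.04 to 0.23, TNFRSF1A changed by -0.05 (adjusted p = 0.63) and FAS by -0.0087 (adjusted p = 0.92). Without CTRL_7 or CTRL_8 the adjusted p was 0.22 and 0.25 for TNFRSF1A, and 0.24 and 0.30 for FAS. The 95% intervals of both changes end at or above -0.41 on the log2 scale. For FAS, 8.94% of exon bases overlap the opposite-strand gene ACTA2, which had 63.7 and 43.5 normalized counts in No glucose and 39.2 and 54.8 in Ctrl.

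TNFRSF21 (DR6), a death domain receptor, had 881 and 918 normalized counts in No glucose and 837 and 780 in Ctrl, without overlap. Its log2 fold change was 0.15 (limma adjusted p = 0.15) and 0.36 with library totals (adjusted p = 0.0051). TNFRSF25 (DR3), a costimulatory death domain receptor of T cells, had 33.4 and 49.1 in No glucose and 58.7 and 42.8 in Ctrl, with overlapping groups. EDAR, the ectodysplasin receptor of skin appendages, had 16.7 and 14 in No glucose and 7.90 and 5.35 in Ctrl. Its groups did not overlap (log2 fold change 1.12 ± 0.41, SE, limma adjusted p = 0.058), and it passed under 4 of 8 alternatives. NGFR and TNFRSF10A (TRAIL receptor 1) stayed below a mean of 10 in both groups. TNFRSF10A had 1 and 1 reads in No glucose and 9 and 4 in Ctrl, so that of the signalling TRAIL receptors TNFRSF10B was the more abundant. Reads of the closely related TNFRSF10 genes may be divided between them by the counting.

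**Figure D2:**
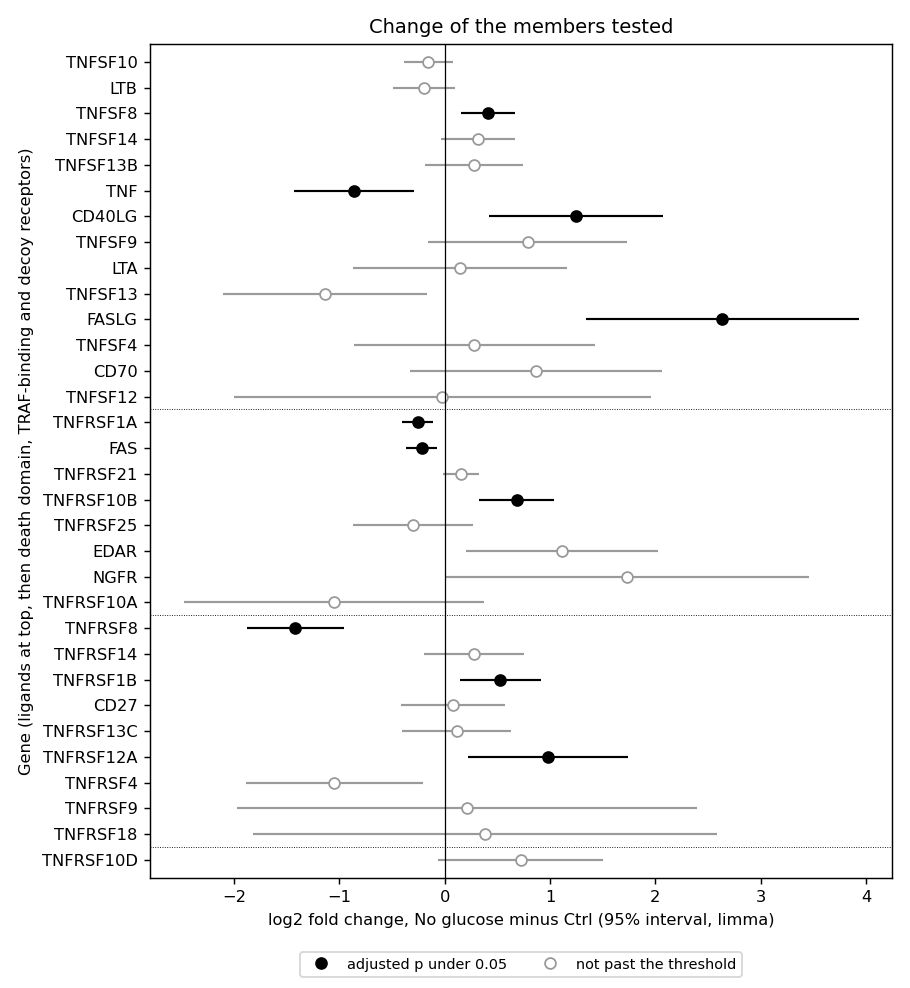
The log2 fold change (No glucose minus Ctrl) of the 32 members tested, with 95% intervals from limma. Filled points passed an adjusted p of 0.05, and the change was largest for FASLG (2.64) and lowest for TNFRSF8 (-1.42).

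Among the 15 TRAF-binding receptors, 9 of them tested, TNFRSF8 fell and TNFRSF1B and TNFRSF12A rose. TNFRSF8 (CD30), a receptor of activated lymphocytes and of several lymphomas, lies on chromosome 1 (12063377 to 12144207). It had 54.6 and 88.4 normalized counts in No glucose, against 203 and 173 in Ctrl, and 36 and 63 reads against 592 and 129. Both No glucose libraries were far below both Ctrl libraries. The log2 fold change was -1.42 ± 0.21 (SE, limma adjusted p = 0.000255), a level 0.374 times that of Ctrl. It was the 1 called member of 10 that passed under all 8 alternatives other than leaving out a library. The authors' deposited table gives an adjusted p for 25 members, and TNFRSF8 (2.6e-05), TNFRSF1A (0.015) and FAS (0.042) are those under 0.05. Leaving out ONG_9 or ONG_10 gave -1.07 and -1.76, both called, and leaving out CTRL_7 or CTRL_8 gave -1.30 (adjusted p = 0.11) and -1.54 (0.083).

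The promoter window of TNFRSF8 (RefSeq start, GRCh38.p14, plus strand, chr1:12063053-12063352) is shown because this receptor had the deepest fall. Capitals mark GGAAA on either strand and TGANTCA.
TNFRSF8: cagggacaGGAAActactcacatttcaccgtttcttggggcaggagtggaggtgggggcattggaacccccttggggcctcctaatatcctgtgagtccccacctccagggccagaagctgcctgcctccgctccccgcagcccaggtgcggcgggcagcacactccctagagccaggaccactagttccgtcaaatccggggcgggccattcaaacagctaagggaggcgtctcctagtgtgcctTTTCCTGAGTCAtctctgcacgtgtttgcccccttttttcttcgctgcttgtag
It held 2 GGAAA matches, at bases 9 and 247, and 1 TGANTCA match at base 252 that directly follows the latter. The NF-kB motif and AAAGGTCA had no match. The G and C content was 59.7% here and 49.3% in the FASLG window, against a median of 58.7% over all windows.

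TNFRSF1B, the TNF receptor of lymphocytes without a death domain, lies on chromosome 1 (12167003 to 12209228), close to TNFRSF8. It had 84.9 and 99.6 normalized counts in No glucose, against 61.5 and 65.5 in Ctrl (log2 fold change 0.53 ± 0.17, SE, limma adjusted p = 0.036). The call was lost with DESeq2 (0.20) and with any 1 library left out (0.055 to 0.25). TNFRSF12A (Fn14), a receptor induced by growth factors and injury, lies on chromosome 16 (3018445 to 3022383). It had 31.8 and 37.9 in No glucose, against 24.0 and 12.0 in Ctrl, where the 2 libraries were themselves far apart. Its log2 fold change of 0.98 ± 0.34 (SE, limma adjusted p = 0.046) was called under 4 of 8 alternatives and with no library left out (adjusted p 0.090 to 0.43), and without CTRL_8 it was 0.51.

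TNFRSF4 (OX40), a costimulatory receptor, had 9.10 and 16.8 normalized counts in No glucose and 33.3 and 21.4 in Ctrl. The groups did not overlap (log2 fold change -1.05 ± 0.38, SE), and the adjusted p was 0.054 in limma, 0.017 in edgeR with TMM scaling, 0.061 in edgeR with library totals and 0.23 in DESeq2. Without ONG_9 the change was -0.64. TNFRSF14 (HVEM), the receptor of TNFSF14, had 89.5 and 149 in No glucose and 92.1 and 97.6 in Ctrl. CD27, a costimulatory receptor of naive T cells, had 53.1 and 82.8 in No glucose and 62.5 and 62.9 in Ctrl. In both, ONG_9 lay below and ONG_10 above the Ctrl libraries, and the sign turned without ONG_10. For CD27, 37.0% of exon bases overlap the opposite-strand gene CD27-AS1, which had 249 and 217 normalized counts in No glucose and 198 and 194 in Ctrl. TNFRSF13C, the BAFF receptor of B cells, had 37.9 and 36.5 in No glucose and 32.6 and 36.1 in Ctrl, with a 95% interval of -0.40 to 0.63 for the log2 fold change.

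Of the 4 decoy receptors, TNFRSF10D, which binds TRAIL, reached the limit. It had 22.7 and 49.1 normalized counts in No glucose and 18.5 and 21.4 in Ctrl (log2 fold change 0.72 ± 0.36, SE, limma adjusted p = 0.15). The difference rests largely on ONG_10, and without ONG_10 it was 0.18.

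The 4 members without a read were LTBR, TNFSF11, TNFRSF6B and TNFSF12-TNFSF13. LTBR, the receptor of lymphotoxin heterotrimers, which is found mainly on stromal and myeloid cells, had 0 reads in all 4 libraries. With 3 reads as the limit that a count of 0 allows, its level was under 2.19 normalized counts over the No glucose group and under 0.820 over the Ctrl group, counting error only. TNFRSF6B lies wholly within the readthrough gene RTEL1-TNFRSF6B, which had 66.7 and 123 normalized counts in No glucose and 147 and 108 in Ctrl, so its 0 does not show that these exons were silent. Likewise, 55.5% of TNFSF13 exon bases are shared with the readthrough gene at 0. CD40, the partner of CD40LG, had 0 reads in both No glucose libraries and 4 and 1 in Ctrl. The other members that were not tested, TNFSF15, TNFSF18, TNFRSF10C, TNFRSF11A, TNFRSF11B, TNFRSF13B, TNFRSF17 and TNFRSF19, had 1 to 5 reads each in the whole study. Those below a mean of 10 but tested (CD70, TNFSF12, NGFR, TNFRSF10A, TNFRSF9 and TNFRSF18) had 5 to 21 reads and did not pass.

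Of 20 ligand and receptor pairs listed from general knowledge, both partners reached a mean of 10 in 9. The ligand alone reached it in 6, the receptor alone in 3 and neither in 2. In the pair TNFSF8/TNFRSF8 the ligand rose and the receptor fell. Per kilobase, TNFSF8 had a mean of 75.2 in No glucose and 56.6 in Ctrl, and TNFRSF8 had 19.1 in No glucose and 50.3 in Ctrl, so the ligand exceeded the receptor by more in No glucose. In FASLG/FAS the receptor was far above the ligand in both groups, 398 against 6.24 per kilobase in No glucose and 463 against 0.536 in Ctrl. For TNF, per kilobase means were 19.8 in No glucose and 35.8 in Ctrl, while its receptor TNFRSF1B had 24.5 in No glucose and 16.9 in Ctrl. LTB and CD40LG reached the limit without their receptors LTBR and CD40.

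**Figure D3:**
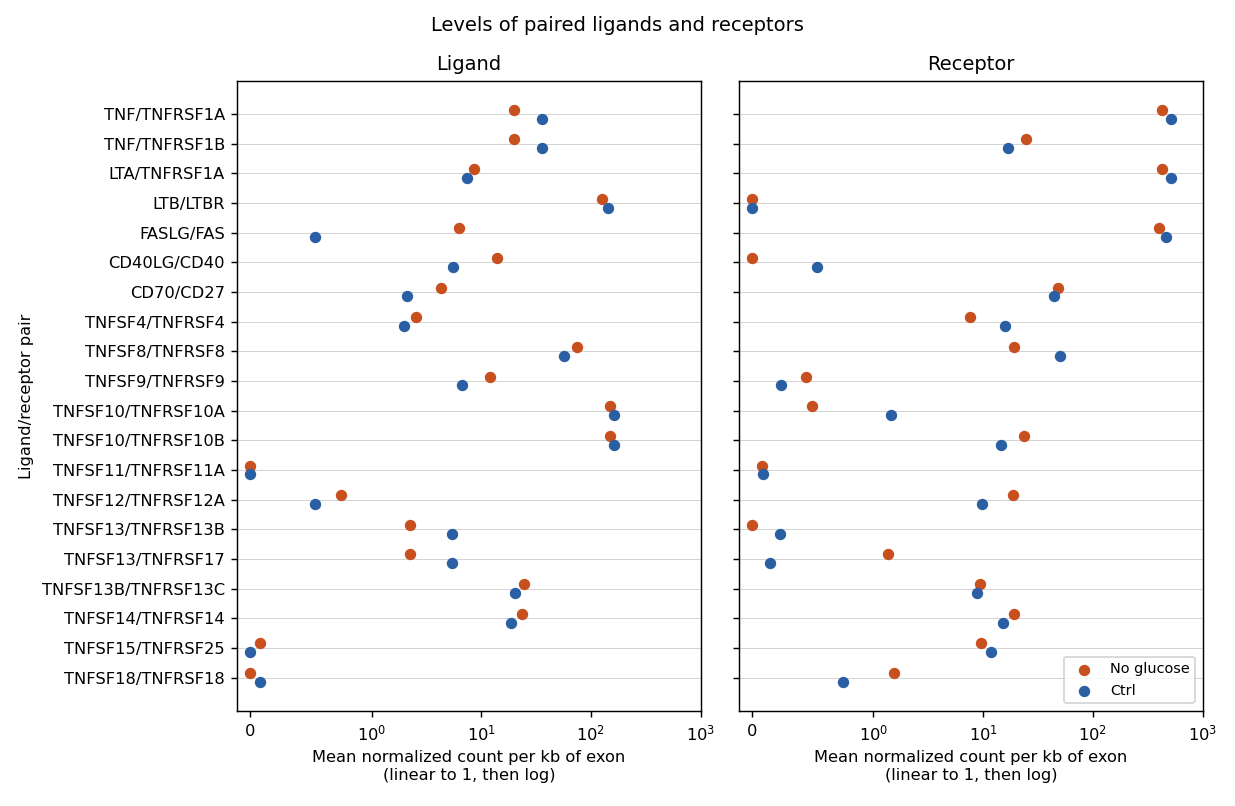
Mean normalized counts per kilobase of exon (linear to 1, then log) of 20 ligand/receptor pairs, ligands at left and receptors at right, with No glucose in orange above Ctrl in blue. LTB (127 and 145) and TNFSF10 (148 and 164) are the highest ligands in No glucose and Ctrl, and LTBR is at 0.

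Genes that carry the receptors' signals changed in both directions. Of 61 signalling genes, all tested, 20 rose, 20 fell and 21 did not pass, with a median log2 fold change of 0.02, against 0.04 over all genes tested. Of all genes tested 35.1% were called. Since 59 of the 61 reached a mean of 10, the nearer background is that of genes at this level. Of all genes there 50.4% were called, and of protein-coding genes 60.3% (18.5% higher and 41.8% lower). Their median log2 fold changes were -0.03 and -0.17. The 40 calls among 61 lie near the protein-coding share in total. By direction, 20 higher and 20 lower were a more even split than the 18.5% and 41.8% of protein-coding genes. That difference was not tested. The same shares are the background of the 5 lists below, whose counts were not tested against them. With library totals 28 were higher and 12 lower. Without CTRL_7, 5 were higher and 3 lower, and without CTRL_8, 5 and 4.

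In the list of 12 adaptors and TRAFs, 4 rose and 6 fell. TRAF1, an NF-kB induced adaptor bound by many TRAF-binding receptors, had 182 and 205 normalized counts in No glucose, against 81.1 and 70.9 in Ctrl (log2 fold change 1.34 ± 0.15, SE, limma adjusted p = 2.8e-05). TRAF2, the adaptor that recruits the ubiquitin ligases BIRC2 and BIRC3, had 622 and 836 in No glucose and 1415 and 1284 in Ctrl (log2 fold change -0.90 ± 0.12). SIVA1, a protein that binds the CD27 tail, fell by 1.11 ± 0.16 on the log2 scale (SE), and DAXX, a FAS-binding nuclear chaperone, by 0.75 ± 0.10. TRAF2, SIVA1 and DAXX were not called without CTRL_7 (adjusted p = 0.092, 0.12 and 0.062) or CTRL_8 (0.074, 0.091 and 0.051). FADD, the adaptor of death receptors, had 42.5 and 75.8 in No glucose and 66.3 and 61.5 in Ctrl, with overlapping groups.

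In the list of 12 death machinery genes, 3 rose, 4 fell and 5 did not pass. CASP8, the initiator caspase of death receptors, had 4776 and 4223 normalized counts in No glucose, against 2683 and 2574 in Ctrl (log2 fold change 0.77 ± 0.07, SE, limma adjusted p = 5.0e-06). CFLAR (c-FLIP), the inhibitor of that caspase, had 2464 and 2454 in No glucose, against 1500 and 1449 in Ctrl (log2 fold change 0.74 ± 0.06). BID, the caspase-8 substrate that links death receptors to mitochondria, had 1295 and 1339 in No glucose, against 2807 and 2628 in Ctrl (log2 fold change -1.04 ± 0.07). MLKL, the executor of necroptosis, had 358 and 359 in No glucose, against 703 and 740 in Ctrl (log2 fold change -1.01 ± 0.08). These 4 genes were called with any 1 library left out. RIPK1, the kinase shared by survival and necroptosis complexes, had 1258 and 1296 in No glucose and 1238 and 1279 in Ctrl, with a 95% interval of -0.13 to 0.17 for the log2 fold change. With library totals RIPK1 was higher by 0.23 (adjusted p = 0.021).

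In the NF-kB activation list of 17 genes, 6 rose and 5 fell. RELB, the subunit of the alternative pathway, rose by 0.76 ± 0.11 on the log2 scale (SE), and REL, a subunit abundant in lymphocytes, by 0.59 ± 0.08. BIRC3, a ubiquitin ligase and NF-kB target, fell by 0.57 ± 0.06, and MAP3K14 (NIK), the kinase of the alternative pathway, by 0.49 ± 0.17 (limma adjusted p = 0.042). MAP3K14 passed under 4 of 8 alternatives, and it was not called without CTRL_7 (adjusted p = 0.38), CTRL_8 (0.28) or ONG_9 (0.21), where its change was -0.25. Of 16 feedback and ubiquitin genes 7 rose and 5 fell. BCL3, a nuclear IkB relative, had 106 and 122 normalized counts in No glucose, against 51.9 and 32.1 in Ctrl (log2 fold change 1.46 ± 0.23, SE). CYLD, a deubiquitinase that restrains TNF receptor signalling, rose by 0.66 ± 0.07, and NFKBIZ, another nuclear IkB relative, by 0.61 ± 0.10. NFKBIA, the classical inhibitor of NF-kB, fell by 0.52 ± 0.07. RELB, REL and NFKBIA were not called without CTRL_7 (adjusted p = 0.071, 0.060 and 0.061) or CTRL_8 (0.079, 0.076 and 0.058), BIRC3 and NFKBIZ without CTRL_7 (0.051 and 0.075), and BCL3 without CTRL_8 (0.063) or ONG_10 (0.057). The 4 shedding genes, ADAM10, ADAM17, RHBDF1 and RHBDF2, did not pass. ADAM10 and ADAM17 are proteases that release TNF and its relatives from the membrane, and RHBDF1 and RHBDF2 are inactive rhomboid proteins that regulate ADAM17.

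**Figure D4:**
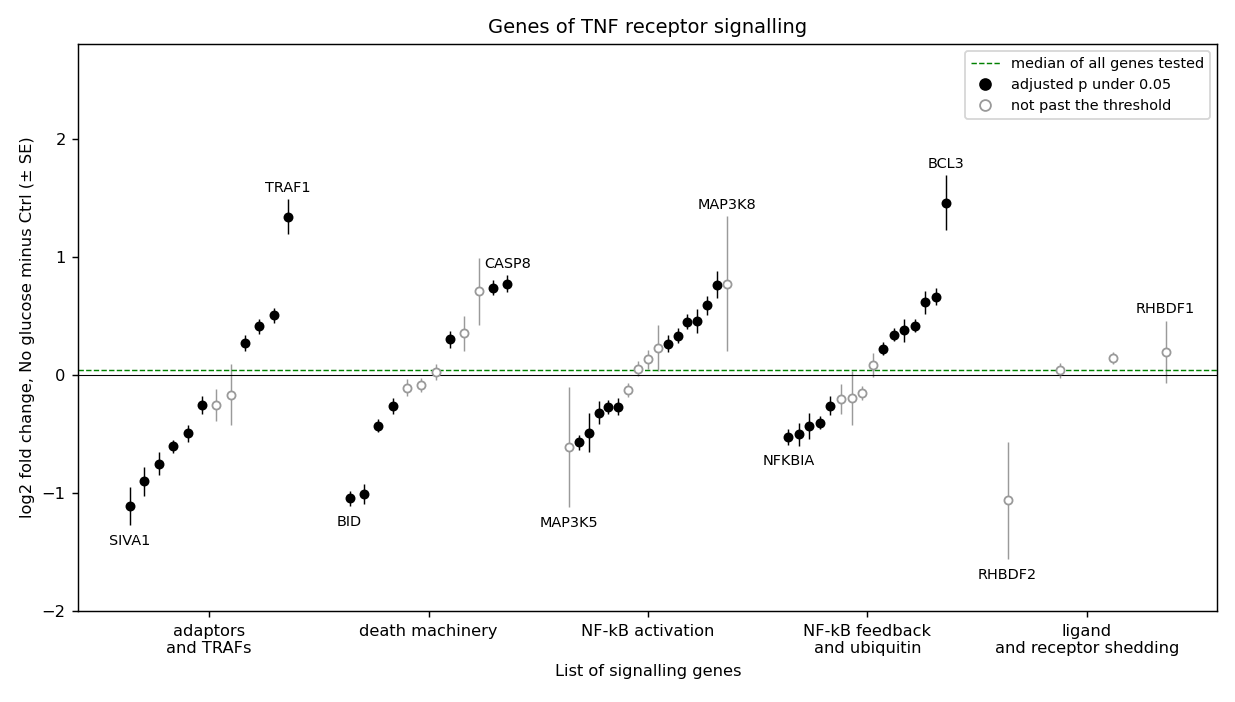
The log2 fold change (No glucose minus Ctrl, ± SE) of 61 signalling genes in 5 lists, ordered within each list. Filled points passed an adjusted p of 0.05, the green dashed line is the median of all genes tested (0.04), and the first and last gene of each list are named, from SIVA1 (-1.11) to BCL3 (1.46).

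Over most members the 2 No glucose libraries differed in the same direction, a count that was not tested. ONG_10 exceeded ONG_9 in 22 of the 26 members that reached a mean of 10 (84.6%), with a median log2 difference of 0.27. Over all genes tested at that level it did so in 44.1%, with a median of -0.04, and over the 61 signalling genes in 30. In Ctrl, CTRL_8 exceeded CTRL_7 in 12 of the 26 members. The part of this difference between libraries in the calls of members was not tested.

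**Figure D5:**
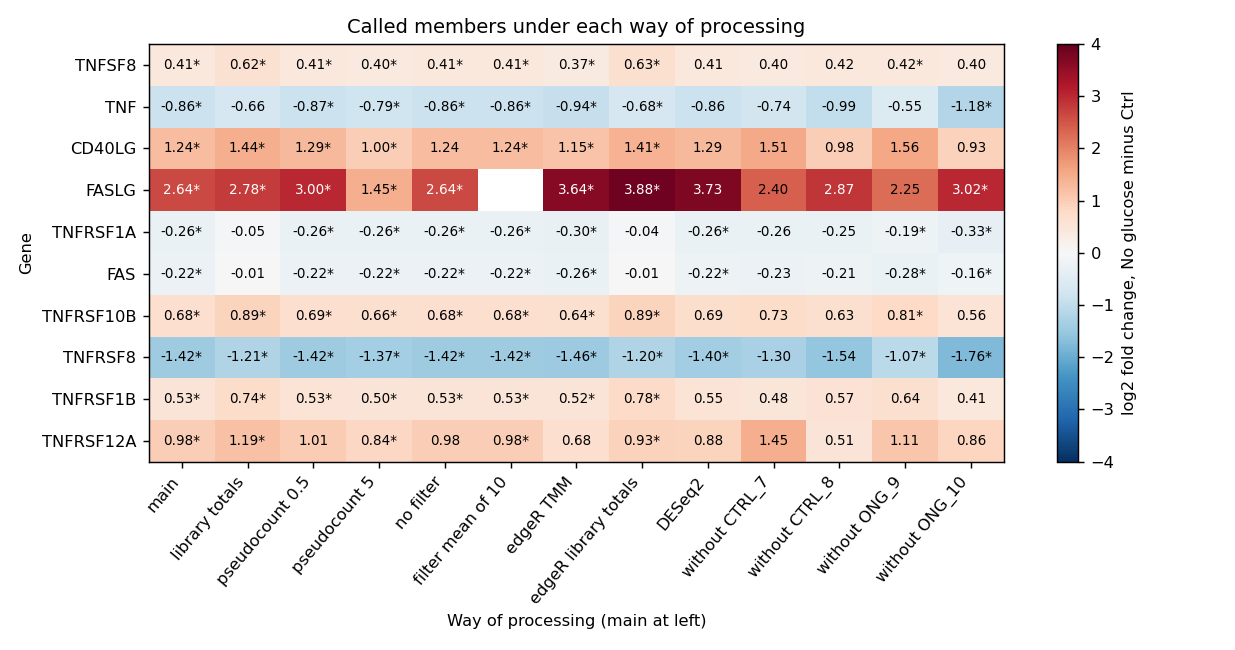
The log2 fold change (No glucose minus Ctrl) of the 10 called members as reported, at left, and under 12 other ways of processing, with an asterisk where the adjusted p was under 0.05. No sign changed, TNFRSF8 was called most often, and FASLG has no value with a filter at a mean of 10.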

How the data were processed

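RNA of 4 libraries, 2 per group, was measured by stranded total RNA sequencing. Per the submitters' processing notes, the tools were STAR 2.6.0c, RSEM 1.3.0 and DESeq2 1.18.1 on hg38. The annotation release and the counting strand are not given in the sources used here. The deposited signal values are gene counts that the authors divided by 1 size factor per library. The log2 fold changes and their errors, the test scores (statistics) and the p-values in the table are the authors' own comparison, as deposited. They are quoted only where the authors' deposited table is named.

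Divided by the step of its library, each value above 0 came out whole (100% within 0.01 of an integer). Coordinates and exon lengths came from GENCODE 29 (GRCh38), which holds 58457 of the 60609 identifiers. Columns starting with ONG were taken as No glucose, since the table's name gives these 2 groups and CTRL marks the remaining columns. The columns carry no replicate number of the labels.

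The two-sided test was limma-trend (limma 3.58.1, R 4.3.3). It used log2 of the normalized count plus a pseudocount of 1 and took genes whose mean over the 4 libraries was 1 or more. Benjamini-Hochberg adjustment ran over all 27486 genes tested, with a threshold of 0.05. edgeR 4.0.16 and DESeq2 1.42.0 on the recovered reads, scaling to library totals, other pseudocounts and filters, and leaving out each library were alternatives. The self-check on simulated counts used the same functions. Every member with a mean of at least 10 normalized counts in a group was named. In each signalling list, up to 4 called genes with the largest absolute change and a mean of at least 50 were named, and RIPK1, FADD, CASP8, CFLAR and MAP3K14 in any case. A symbol with more than 1 identifier was represented by the more abundant one. The members and lists were chosen with earlier results of these data known. The counts over genes reaching 10 were added after the data were seen.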

Additional observations from a re-analysis of the deposited data

How the results depend on the processing

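No paired analysis was possible because the columns carry none of the labels' replicate numbers. The count of members called higher was 6 in limma, 11 with edgeR and library totals, and 0 with DESeq2, where 2 had an unadjusted p under 0.05 and edgeR with TMM called 5. The count called lower was 4, and 1 with library totals or 2 with edgeR and library totals. With any 1 library left out, 0 to 4 members were called higher and 0 to 5 lower. Both counts were 0 without CTRL_7 (6 higher and 1 lower at an unadjusted p under 0.05) and without CTRL_8 (3 and 1), fits in which the lone Ctrl library is assumed to vary like No glucose. None of the 10 called members changed sign under these alternatives. The count of signalling genes called lower was 12 under both fits with library totals. With a library left out, 5 to 20 signalling genes were called higher and 3 to 19 lower. Over all genes 6106 were called higher with library totals, 6736 with edgeR and library totals and 2436 with DESeq2, against 3948 in limma. With a library left out 635 to 3024 were called higher and 1573 to 5708 lower. The number of members reaching a mean of 10 was 25 or 26 with a library left out, 28 at a limit of 5 and 21 at a limit of 20.

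Among the 26 members and 18 signalling genes followed singly under the alternatives, signs turned only for genes that were not called. The remaining signalling genes were not followed singly. With library totals TNFSF10, LTB and FADD were at 0.056, 0.013 and 0.040 on the log2 scale, and with edgeR and library totals at 0.063, 0.044 and 0.093. RIPK1 was at -0.018 with edgeR and TMM. With a library left out the ranges were -0.41 to 0.71 for LTA, -0.26 to 0.83 for TNFSF4, -0.083 to 0.64 for TNFRSF14, -0.24 to 0.40 for CD27, -0.58 to 0.24 for FADD and -0.0016 to 0.045 for RIPK1. The cause was not tested. At 10 to 50 normalized counts the median SE of a member was 0.37 on the log2 scale, so changes of that size were not detectable there. Larger changes could be missed too, and 3 of the 10 members at this level were called. TNFRSF12A at 0.98 narrowly passed and TNFRSF4 at -1.05 did not (limma adjusted p = 0.046 and 0.054).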
